A study of Homo sapiens with 16 samples.

Results

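The difference between the responses of 2 related breast cancer cell lines to a RECK construct was measured: the level with the RECK construct minus that with empty vector in LM24175, minus the same quantity in MDA-MB-231. The members are the 8 arrays of these 2 lines, chosen by their labels from the 16 arrays of the series, and every one of the 22215 probe sets that are not controls was tested. Both lines were described as invasive and stably infected with a constitutively expressed RECK construct or with an empty vector (EV), with 2 arrays in each of the 4 groups. MDA-MB-231 is a human triple-negative breast cancer line, and LM24175 is a derivative of it that was selected for metastasis to the lung. The other 8 arrays are of 2 poorly invasive lines, Hs343T and Hs606T, which received an siRNA against RECK or a scrambled siRNA. They entered the fit for the spread between arrays only. The sources used here do not say whether an infected line is 1 clone or a pool. Whether the pair of arrays in a group stems from separate cultures is not said either, and the p-values cover the spread between those arrays alone, which could be a technical one.

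RECK is a membrane-anchored glycoprotein that inhibits matrix metalloproteinases (MMPs), the enzymes that cut collagen and other matrix proteins. Several of the gene groups below have well known regulators. Genes of cholesterol and fatty acid synthesis are switched on by the SREBP transcription factors when sterols in the endoplasmic reticulum are low, and INSIG1 holds SREBP back. Many chemokine genes carry kappaB sites for the NF-kB factors.

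Values are the deposited log2 levels, and a response is the mean of the RECK-labelled arrays minus the mean of the EV arrays of the same line. The difference is the response in LM24175 minus that in MDA-MB-231, so a negative difference means a lower response in LM24175. A probe set was called when its p-value from limma, adjusted by Benjamini and Hochberg over all 22215 probe sets, was under 0.05.

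RECK itself gave no check of the labels. Its probe set with the highest level read 7.39 and 7.76 on the RECK-labelled arrays of LM24175 against 7.96 and 8.04 with empty vector, and 7.78 and 7.80 on the RECK-labelled arrays of MDA-MB-231 against 7.74 and 7.78 with empty vector. The groups overlapped in MDA-MB-231, and both RECK-labelled arrays of LM24175 lay below both EV arrays. The difference between responses for this probe set was -0.45 (adjusted p = 0.34), and those of the other 2 RECK probe sets were 0.08 (adjusted p = 0.82) and 0.14 (adjusted p = 0.81). No RECK probe set was higher with the construct in either line at the threshold. The sources used here do not place these probe sets inside or outside the construct, so the groups are called by their labels, and every direction below is one between labelled arrays.

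One pair of arrays stood apart together. Across the 22215 probe sets, the deviation of the first from the second RECK-labelled array of LM24175 correlated with the deviation of the first from the second EV array of MDA-MB-231 (r = 0.449), a description across probe sets that share an array. The SD of the deviation between the 2 arrays was 0.262 in the RECK-labelled LM24175 group and 0.302 in the MDA-MB-231 EV group, against 0.167 in the LM24175 EV group and 0.240 in the RECK-labelled MDA-MB-231 group. Because these 2 arrays enter the difference with the same sign, a deviation they share adds to it and does not cancel. Results are therefore given also from a fit of 14 arrays without this pair, in which RECK-labelled LM24175 and MDA-MB-231 EV have 1 array each, assumed to vary like the other groups. The SDs of these groups were the largest of any group, and that fit leaves their spread out of its error. For CXCL3, described below, the SE of the difference was 0.37 with all arrays and 0.13 without the pair. A call without the pair is therefore read for size and direction, and is not a separate test. Array medians of the 8 arrays lay between 6.49 and 6.56. The 3′ minus 5′ signal of the ACTB control probe sets was 0.71 on the first MDA-MB-231 EV array and between 0.85 and 0.98 on the other 7.

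**Figure D1:**
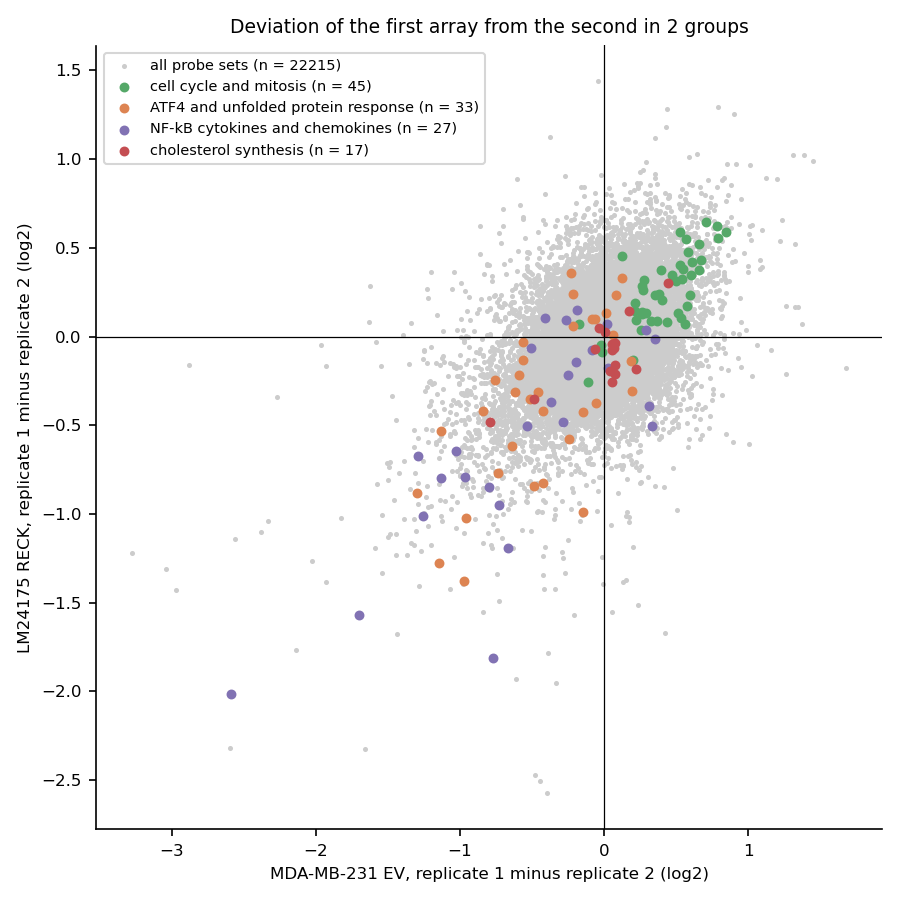
Each point is a probe set, with the first minus the second MDA-MB-231 EV array on the x axis and the first minus the second RECK-labelled LM24175 array on the y axis, both in log2 units. Grey points are all 22215 probe sets and coloured points are the genes of 4 lists; the points lie along a rising diagonal (r = 0.449), with cell cycle genes at the upper right, NF-kB and ATF4 genes at the lower left and cholesterol genes mostly near 0.

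With all arrays, 581 of the 22215 probe sets were called (2.62%), 274 with a higher (1.23%) and 307 with a lower response in LM24175 (1.38%). They belong to 446 named genes. In 499 of the 581 (2.25% of all probe sets) the responses had opposite signs: 217 (0.977%) were above 0 in LM24175 and below 0 in MDA-MB-231, and 282 (1.27%) were the reverse. After each array was centred on its median, that split was 267 against 226. In 363 of the 581, the groups did not overlap in either line and ran in opposite directions, an arrangement found in 10.1% of all probe sets. The calls were chosen by the difference on these same arrays. Opposite signs and a lack of overlap follow in part from that choice and are not separate support.

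The opposite signs rested mostly on LM24175. Of the 499, 335 were also called for the response in LM24175 alone, 20 for that in MDA-MB-231 alone, 9 in both lines and 135 in neither. The response was larger in LM24175 for 376 of the 499, and both responses were at least 0.5 log2 units in 58. For comparison, the response in LM24175 was called for 980 probe sets (4.41%) and that in MDA-MB-231 for 53 (0.239%).

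All 9 probe sets that were called in each line with opposite signs were lower in LM24175 and higher in MDA-MB-231 with the construct. They measure APBA2, DHCR7, HOXB7, KYNU, LPIN1, LRP8, MSMO1 and SCD, and 1 has no gene name here. DHCR7 and MSMO1 are enzymes of cholesterol synthesis, SCD desaturates fatty acids and LPIN1 is a phosphatidate phosphatase of triglyceride synthesis. KYNU is the kynureninase of tryptophan breakdown, LRP8 is a lipoprotein receptor that binds reelin and HOXB7 is a homeobox transcription factor. These genes were chosen after their values were seen.

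Without the 2 arrays, 461 probe sets were called (2.08%), 230 higher (1.04%) and 231 lower (1.04%). Both fits called 277, which is 47.7% of the calls with all arrays and 60.1% of those without the pair. All 581 kept the direction of their difference without the pair, and their median size was 0.85 with all arrays and 0.73 without it. The responses had opposite signs in 365 of the 461 (1.64%), 167 higher (0.752%) and 198 lower (0.891%) in LM24175. A count of 208 probe sets, of 160 genes, was called with opposite signs in both fits, 73 higher and 135 lower in LM24175. Across probe sets the correlation between the 2 responses was -0.133 with all arrays and 0.017 without the pair. The 2 responses share no array.

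The count depended on single arrays. It was 143 without the first and 171 without the second LM24175 EV array, 253 without the first and 1133 without the second RECK-labelled LM24175 array, 210 without the first RECK-labelled MDA-MB-231 array and 1822 without the second MDA-MB-231 EV array. It was 379 without the first MDA-MB-231 EV array and 838 without the second RECK-labelled MDA-MB-231 array. With the 8 arrays alone, limma called 25 probe sets, and 2880 had an unadjusted p under 0.05. That fit has fewer degrees of freedom for the spread and leaves out the Hs343T and Hs606T groups. The SD of the deviation between replicate arrays was 0.189 to 0.210 in those groups. It was 0.302 in MDA-MB-231 EV, 0.262 and 0.240 in RECK-labelled LM24175 and MDA-MB-231, and 0.167 in LM24175 EV. The fit with all arrays pools these spreads, so its p-values may be too small. What lowered the count was not tested.

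**Figure D2:**
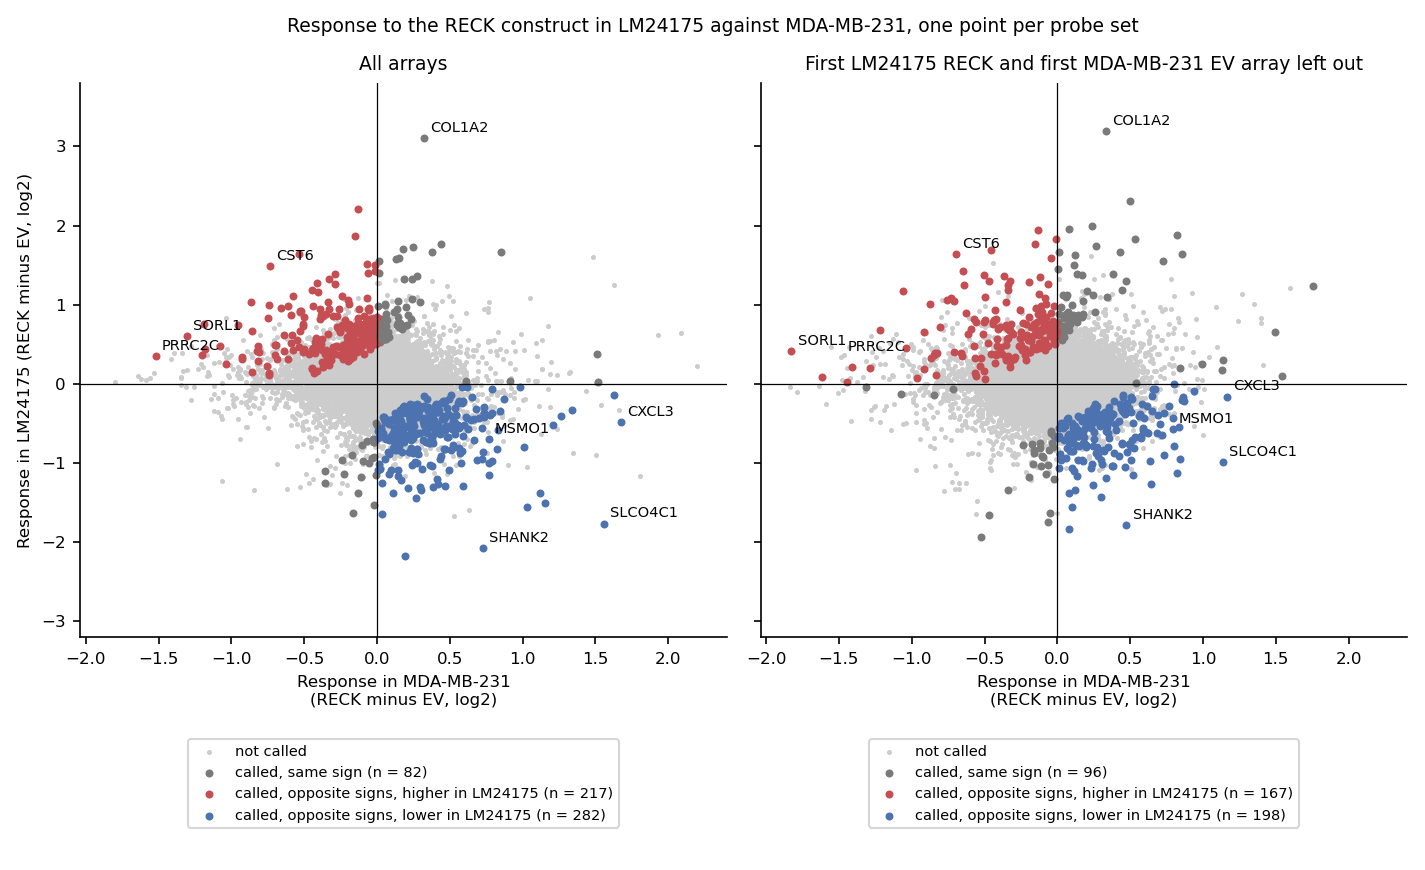
Each point is a probe set, with the response (RECK-labelled minus EV, log2) in MDA-MB-231 on the x axis and that in LM24175 on the y axis, with all arrays on the left and without the 2 deviating arrays on the right. Red and blue points are called for the difference with opposite signs, 217 and 282 on the left and 167 and 198 on the right; dark grey points are called with the same sign and light grey points are not called.

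Genes of cholesterol synthesis had a lower response in LM24175 with and without the deviating pair. Of the 17 measured genes of that list, 8 were called and all 8 were lower in LM24175 with opposite signs, both with all arrays and without the pair, against 1.58% and 1.25% of all genes called lower. The median over the 17 was a difference of -0.81 with all arrays and -0.68 without the pair, against -0.01 and -0.03 over all 11963 genes. It combined a median response of -0.32 in LM24175 and of 0.29 in MDA-MB-231. The median deviation of the first from the second array over this list was -0.07 in the RECK-labelled LM24175 group and 0.05 in the MDA-MB-231 EV group.

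MSMO1, the sterol methyl oxidase, read 11.16 and 11.41 on the RECK-labelled arrays of LM24175 against 12.03 and 11.93 with empty vector, and 11.48 and 11.56 on the RECK-labelled arrays of MDA-MB-231 against 10.79 and 10.73 with empty vector. All 8 arrays kept to their groups, which ran in opposite directions in the 2 lines. The responses were -0.70 in LM24175 (adjusted p = 0.0015) and 0.77 in MDA-MB-231 (adjusted p = 0.012), with a difference of -1.46 ± 0.13 (SE; adjusted p = 0.00055), a 2.75-fold lower response in LM24175 on the linear scale. Without the pair the difference was -1.36 (adjusted p = 0.0016), and with any single array left out it ranged from -1.59 to -1.33.

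DHCR7, which makes cholesterol in the last step of one branch of the pathway, read 8.65 and 8.60 against 9.45 and 9.35 in LM24175, and 9.11 and 9.12 against 8.57 and 8.61 in MDA-MB-231, RECK-labelled against EV. The 2 arrays of each group lay close together, and the EV levels of the 2 lines were farther apart than their RECK-labelled levels. Its difference was -1.30 ± 0.13 (SE; adjusted p = 0.0011) with all arrays and -1.30 (adjusted p = 0.0048) without the pair. HMGCS1, the synthase that makes HMG-CoA, read 7.85 and 7.83 against 8.51 and 8.76 in LM24175, and 8.06 and 8.21 against 7.61 and 7.61 in MDA-MB-231 and had a difference of -1.32 ± 0.18 (SE; adjusted p = 0.0041). Its second probe set gave -1.58, and both probe sets were called with and without the pair.

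INSIG1, which retains the SREBP complex in the endoplasmic reticulum, read 10.84 and 10.88 against 11.11 and 11.19 in LM24175, and 10.75 and 10.85 against 10.10 and 10.03 in MDA-MB-231. Its difference of -1.03 ± 0.16 (SE; adjusted p = 0.0083) came mostly from MDA-MB-231, where the response was 0.73 (adjusted p = 0.025), while in LM24175 it was -0.29 (adjusted p = 0.2). In both lines the arrays of the 2 groups did not overlap. Further INSIG1 probe sets had differences of -1.17 (adjusted p = 0.0031) and -1.12 (adjusted p = 0.019). On the latter probe set the responses were of similar size, -0.55 in LM24175 and 0.56 in MDA-MB-231.

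LSS, which closes the sterol rings, read 9.71 and 9.78 against 10.32 and 10.26 in LM24175, and 9.72 and 9.72 against 9.32 and 9.38 in MDA-MB-231, and FDPS, which makes farnesyl diphosphate, read 11.63 and 11.82 against 12.28 and 12.43 in LM24175, and 11.79 and 11.82 against 11.56 and 11.51 in MDA-MB-231. Both fell in LM24175, by 0.55 and 0.63 on the log2 scale, and their responses in MDA-MB-231, 0.37 and 0.27, did not pass the test. The differences were -0.92 (adjusted p = 0.0028) for LSS and -0.90 (adjusted p = 0.0046) for FDPS. SC5D, the lathosterol oxidase, had a difference of -0.82 (adjusted p = 0.0084) and IDI1, the isopentenyl diphosphate isomerase, one of -0.68 (adjusted p = 0.015). The IDI1 probe set may cross-hybridise, and a second SC5D probe set gave -0.04 (adjusted p = 0.95).

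The remaining 9 genes of the list were not called on the probe set that stands for the gene. Differences lay between -0.83 for SREBF2, the gene of the SREBP that drives this pathway, and 0.43 for NSDHL. SREBF2 read 7.30 and 7.65 against 8.04 and 7.98 in LM24175, and 7.59 and 7.75 against 7.13 and 7.62 in MDA-MB-231 (adjusted p of the difference = 0.078), and without the pair its difference was -0.42 (adjusted p = 0.33). Its second probe set was called with all arrays, with -0.60 (adjusted p = 0.047), and had -0.57 (adjusted p = 0.1) without the pair. EBP and NSDHL, which act late in the pathway, had positive differences of 0.36 and 0.43 (adjusted p = 0.17 and 0.13). Both rose in LM24175, by 0.53 (adjusted p = 0.0056) and 0.62 (adjusted p = 0.0035) on the log2 scale. For the response in LM24175 alone, 5 genes of the list were called lower and 2 higher, against 300 and 343 of all 11963 genes. The members of the list without a probe set of exactly 1 gene symbol were not analysed here.

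Fatty acid genes ran the same way. Of the 15 measured genes of synthesis and desaturation, 7 were called with all arrays (SCD, FABP4, FASN, LPIN1, ACACA, FADS2 and ELOVL6) and 4 without the pair (SCD, FABP4, FASN and LPIN1), all lower in LM24175 with opposite signs, against 1.58% and 1.25% of all genes called lower. The median difference was -0.64 with all arrays and -0.50 without the pair. The probe set that stands for LPIN1 had -1.10 (adjusted p = 0.012) with all arrays and -0.73 (adjusted p = 0.022) without the pair.

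SCD, the stearoyl-CoA desaturase, read 7.58 and 8.34 on the RECK-labelled arrays of LM24175 against 9.41 and 9.53 with empty vector, and 9.86 and 9.84 on the RECK-labelled arrays of MDA-MB-231 against 8.37 and 9.03 with empty vector. The RECK-labelled arrays were below EV in LM24175 and above EV in MDA-MB-231 without overlap, and the 2 deviating arrays held the lowest value of their groups. The difference was -2.66 ± 0.31 (SE; adjusted p = 0.0025) with all arrays and -1.95 (adjusted p = 0.00063) without the pair. All 4 SCD probe sets were called, with differences between -2.66 and -1.59.

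FASN, the fatty acid synthase, read 7.59 and 7.63 against 8.67 and 8.70 in LM24175, and 8.43 and 8.36 against 8.01 and 8.17 in MDA-MB-231, where the 2 arrays of each group lay close together. Its difference was -1.39 ± 0.12 (SE; adjusted p = 0.00052) with all arrays and -1.29 (adjusted p = 0.002) without the pair, and it came mainly from LM24175, where FASN fell by 1.08 on the log2 scale. A second, cross-hybridising FASN probe set gave -0.06 and was not called. FABP4, a fatty acid carrier of fat cells and macrophages, read 5.03 and 5.22 against 6.69 and 6.86 in LM24175, and 5.32 and 5.14 against 5.26 and 5.13 in MDA-MB-231, a response of -1.65 in LM24175 and 0.03 in MDA-MB-231.

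SREBF1, the gene of the SREBP that drives fatty acid synthesis, read 7.12 and 8.04 against 8.42 and 8.37 in LM24175, and 8.49 and 8.50 against 7.42 and 8.56 in MDA-MB-231. Its lowest values were those of the 2 deviating arrays. The difference was -1.32 (adjusted p = 0.14) with all arrays and -0.29 (adjusted p = 0.46) without the pair. Among the 10 measured genes of cholesterol efflux and LXR targets, NPC1, which moves cholesterol out of lysosomes, was called. Its difference was -1.003 (adjusted p = 0.018) with all arrays and -0.62 without the pair. A second NPC1 probe set gave 0.06 (adjusted p = 0.95) with all arrays and 0.41 without the pair. NPC1 was not called when either LM24175 EV array, the first RECK-labelled LM24175 array or the first RECK-labelled MDA-MB-231 array was left out, with an adjusted p of up to 0.078.

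**Figure D3:**
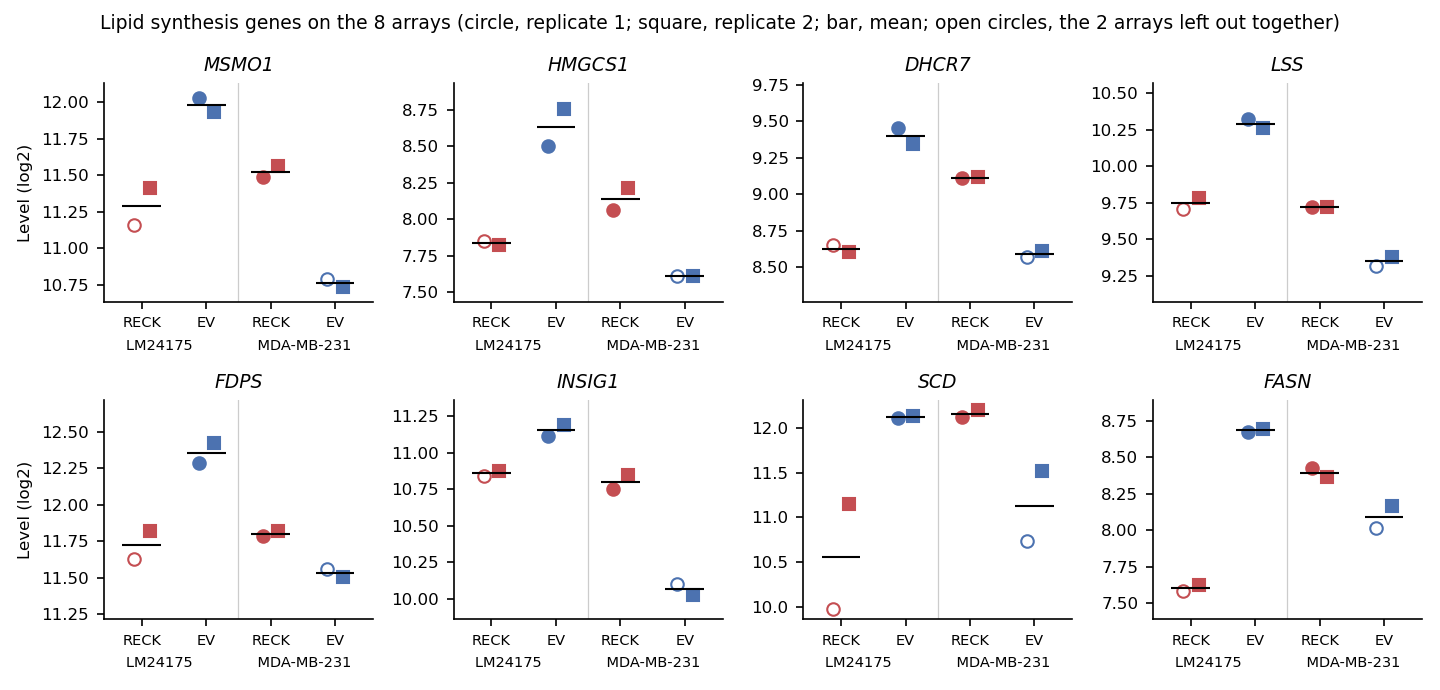
Log2 level of 8 lipid synthesis genes on each of the 8 arrays, with LM24175 left of MDA-MB-231 and RECK-labelled arrays (red) left of EV (blue); bars are group means, circles replicate 1, squares replicate 2, and open circles the 2 deviating arrays. In each panel the red points lie below the blue ones in LM24175 and above them in MDA-MB-231; the probe set shown for SCD is its brightest one, with a difference of -2.59.

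The promoters of these genes are shown because the genes moved together. Sequences are the 250 bases before the start, from RefSeq on GRCh38.p14, written on the gene's strand, with matches to the searched motif in capitals. The motif CCAAT, the CCAAT box where NF-Y binds beside SREBP in many sterol genes, was searched on both strands, so ATTGG is the same motif on the other strand.
MSMO1, chr4:165327419-165327668, plus strand: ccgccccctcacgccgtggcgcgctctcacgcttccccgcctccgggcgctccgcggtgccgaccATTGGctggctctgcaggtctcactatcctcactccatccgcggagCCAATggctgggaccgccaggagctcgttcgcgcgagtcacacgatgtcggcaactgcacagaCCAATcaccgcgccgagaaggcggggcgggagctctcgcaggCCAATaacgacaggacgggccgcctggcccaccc
LSS, chr21:46228775-46229024, minus strand: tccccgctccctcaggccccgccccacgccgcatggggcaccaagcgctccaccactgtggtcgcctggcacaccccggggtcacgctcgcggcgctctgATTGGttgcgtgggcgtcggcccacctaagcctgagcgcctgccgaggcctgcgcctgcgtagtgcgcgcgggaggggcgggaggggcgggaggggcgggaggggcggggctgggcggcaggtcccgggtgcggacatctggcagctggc
SCD, chr10:100346983-100347232, plus strand: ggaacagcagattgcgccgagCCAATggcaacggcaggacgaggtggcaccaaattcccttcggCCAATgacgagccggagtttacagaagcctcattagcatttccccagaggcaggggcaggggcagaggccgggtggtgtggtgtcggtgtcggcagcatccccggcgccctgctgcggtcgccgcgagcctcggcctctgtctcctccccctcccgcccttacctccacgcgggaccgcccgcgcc
MSMO1 has 4 matches, LSS 1 and SCD 2. A CCAAT match stood in at least 1 window of 8 of the 8 called cholesterol genes and of 7 of the 8 genes of the list that were not called and have an entry, against 32.0% of 35116 single promoters. Genes with several starts had several windows. The sterol element TCACNCCAC, also on both strands, had a match in 0 of the 8 called and 1 of the 8 other genes, against 0.883% of all promoters. Of the fatty acid list, 2 of the 5 called genes with an entry had a CCAAT match, SCD among them. Of the genes of that list that were not called, 4 of 6 had one. A match is a description of letters, and the called and uncalled genes of the cholesterol list hardly differed in it.

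The chemokine and cytokine genes of the NF-kB list also had a lower response in LM24175, but they moved with the 2 deviating arrays. Of 27 measured genes, 6 were called with all arrays, all lower with opposite signs: CXCL3, IL11, CSF1, CXCL1, RELB and TNFAIP3. These stand against 1.58% of all genes called lower. Without the pair 5 were called lower (1.25% of all genes): CXCL3, IL11 and CXCL1, which remained, and PTGS2 and IL1B, which were added. CSF1, RELB and TNFAIP3 were no longer called, with differences of -0.89 (adjusted p = 0.089), -0.48 (adjusted p = 0.085) and -0.41 (adjusted p = 0.15). Of the 5, CXCL3, IL11 and PTGS2 had opposite signs. Further CSF1 probe sets gave 0.05 (adjusted p = 0.93), -0.55 (adjusted p = 0.43) and -0.19 (adjusted p = 0.72) with all arrays. The median difference over the list was -0.68 with all arrays and -0.34 without the pair. Over the list, the first array lay below the second by a median of -0.48 in the RECK-labelled LM24175 group and -0.41 in the MDA-MB-231 EV group. A low value on these arrays lowers the response in LM24175 and raises that in MDA-MB-231. The part of these arrays in the result was not tested beyond the fit without them.

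CXCL3, a chemokine that draws neutrophils, read 8.30 and 8.95 on the RECK-labelled arrays of LM24175 against 9.03 and 9.19 with empty vector, and 9.63 and 9.62 on the RECK-labelled arrays of MDA-MB-231 against 7.43 and 8.46 with empty vector. The lowest values were those of the 2 deviating arrays. CXCL3 rose in MDA-MB-231 by 1.68 (adjusted p = 0.025), and the response in LM24175 was -0.48 (adjusted p = 0.42). The difference was -2.16 ± 0.37 (SE; adjusted p = 0.012) with all arrays and -1.32 (adjusted p = 0.0026) without the pair; leaving out the second LM24175 EV array gave an adjusted p of 0.058.

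CXCL1, a close relative of CXCL3 and of the same gene cluster, read 9.89 and 10.37 against 10.12 and 10.22 in LM24175, and 10.19 and 10.15 against 9.04 and 9.33 in MDA-MB-231. In LM24175 the groups overlapped, and in MDA-MB-231 both RECK-labelled arrays were above both EV arrays. The difference was -1.03 (adjusted p = 0.019) with all arrays and -0.65 (adjusted p = 0.035) without the pair, where the response in LM24175 was 0.20 and the signs were no longer opposite. The call was lost without either LM24175 EV array, the first MDA-MB-231 EV array or the first RECK-labelled MDA-MB-231 array, with an adjusted p of up to 0.088.

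The promoters of CXCL3 and CXCL1 are shown for the kappaB motif GGAANTTCC, which reads the same on both strands.
CXCL3, chr4:74038690-74038939, minus strand: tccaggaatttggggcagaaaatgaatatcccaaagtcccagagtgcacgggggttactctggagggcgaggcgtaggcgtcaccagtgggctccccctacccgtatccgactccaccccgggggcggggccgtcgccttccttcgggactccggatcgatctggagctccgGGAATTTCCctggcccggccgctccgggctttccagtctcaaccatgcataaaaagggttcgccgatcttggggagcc
CXCL1, chr4:73869143-73869392, plus strand: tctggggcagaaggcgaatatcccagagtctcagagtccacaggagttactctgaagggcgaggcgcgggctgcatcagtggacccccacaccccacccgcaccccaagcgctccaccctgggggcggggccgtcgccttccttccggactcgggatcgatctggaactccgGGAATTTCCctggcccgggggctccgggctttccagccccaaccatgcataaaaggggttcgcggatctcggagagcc
Both hold 1 copy, counted on either strand, 78 bases before the start. A match was found in 2 of the 4 called genes of the list with an entry and in 7 of the 16 that were not called, against 0.826% of all promoters.

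IL11, a cytokine of the interleukin-6 family, read 7.29 and 7.79 on the RECK-labelled arrays of LM24175 against 8.74 and 8.94 with empty vector, and 9.30 and 9.29 on the RECK-labelled arrays of MDA-MB-231 against 9.17 and 8.83 with empty vector, lower on both RECK-labelled arrays of LM24175, while in MDA-MB-231 the RECK-labelled arrays lay just above both EV arrays. IL11 fell in LM24175 by 1.30 on the log2 scale (adjusted p = 0.00059), and its difference was -1.60 ± 0.21 (SE; adjusted p = 0.0037) with all arrays and -1.51 (adjusted p = 0.0016) without the pair. PTGS2, the inducible cyclooxygenase, shows how far the deviating pair could move a value. It read 9.54 and 11.56 against 11.69 and 11.75 in LM24175, and 11.71 and 11.58 against 8.55 and 11.14 in MDA-MB-231, and its difference was -2.97 (adjusted p = 0.13) with all arrays and -0.67 (adjusted p = 0.042) without the pair.

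Genes of the ATF4 and unfolded protein response list followed the pair as well. Of 33 measured genes, EDEM1, SLC7A5 and MTHFD2 were called lower with all arrays and 0 without the pair, against 1.58% and 1.25% of all genes. The median difference was -0.43 with all arrays and -0.11 without the pair. Their differences without the pair were -0.52 (adjusted p = 0.095) for EDEM1, -0.48 (adjusted p = 0.11) for SLC7A5 and -0.44 (adjusted p = 0.095) for MTHFD2. The 45 cell cycle genes gave no call in either fit, and their median difference changed sign, 0.10 with all arrays and -0.19 without the pair. Over them the first array lay above the second by a median of 0.24 in the RECK-labelled LM24175 group and 0.43 in the MDA-MB-231 EV group.

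**Figure D4:**
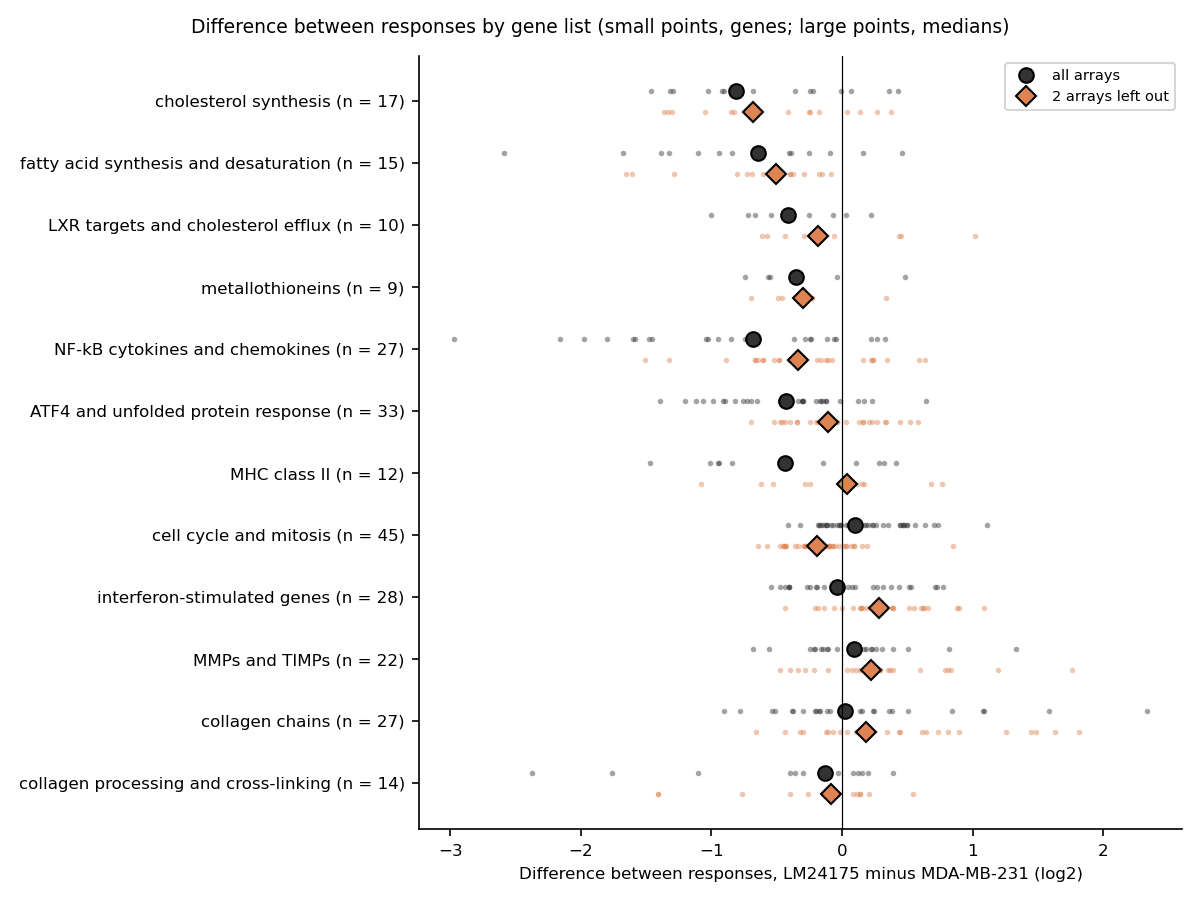
Difference between responses (LM24175 minus MDA-MB-231, log2) for the genes of 12 lists, with all arrays (dark circles) and without the 2 deviating arrays (orange diamonds); small points are genes and large points medians. The cholesterol and fatty acid medians stay below -0.4 in both fits, while those of the ATF4, MHC class II and cell cycle lists move towards or across 0.

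Several collagen genes had a higher response in LM24175. Of 27 measured collagen chain genes, 4 were called higher with all arrays (COL1A2, COL3A1, COL15A1 and COL6A3) and 5 without the pair (these and COL5A1), and 0 were called lower in either fit, against 1.38% and 1.29% of all genes called higher. The median over the list was 0.02 with all arrays and 0.19 without the pair, so most collagen genes stood near the background. Fibroblasts are cells that make collagen-rich matrix. The arrays are labelled as cell lines, and fractions of cells were not measured. Fibroblast markers, COL1A1 among them, averaged 5.31 and 5.61 on the RECK-labelled arrays of LM24175 against 5.47 and 5.46 with EV. On those of MDA-MB-231 they averaged 4.79 and 4.89 against 4.59 and 4.82 with EV. Of the 10 markers, PDGFRA, FAP and POSTN lay under the lower quartile of every one of the 8 arrays. TAGLN and COL1A1 lay above the array median on 4 arrays each, ACTA2 on 2 and LUM on 1. PDGFRB and THY1 lay under the lower quartile on 0 arrays and DCN on 2. In bulk RNA, fewer cells of a kind and less RNA per cell cannot be told apart.

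COL1A2, a chain of type I collagen, read 6.67 and 6.83 on the RECK-labelled arrays of LM24175 against 3.57 and 3.71 with empty vector, and 3.47 and 3.85 on the RECK-labelled arrays of MDA-MB-231 against 3.34 and 3.32 with empty vector. Only the RECK-labelled LM24175 arrays were high, and the other 6 arrays lay between 3.32 and 3.85. Those 6 values were dim, under the lower quartile of their arrays, which lay between 4.47 and 4.52 over the 8 arrays. COL1A2 rose in LM24175 by 3.11, the difference was 2.78 ± 0.16 (SE; adjusted p = 1.66e-05) with all arrays and 2.86 (adjusted p = 0.00063) without the pair, and the responses had the same sign. A second COL1A2 probe set gave a difference of 2.34 with a response of -0.13 in MDA-MB-231, so the sign in that line was not settled. COL1A1, the partner chain, read 7.38 and 7.54 against 7.62 and 7.67 in LM24175, and 5.02 and 4.51 against 3.87 and 5.005 in MDA-MB-231 and was not called (-0.51 (adjusted p = 0.56)). Without the pair its difference was 0.14 (adjusted p = 0.87). Another COL1A1 probe set had a difference of 0.68 (adjusted p = 0.37) with all arrays and was called without the pair, with 1.34 (adjusted p = 0.036), and the other 2 were not called in either fit.

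COL3A1 read 5.20 and 5.66 against 3.90 and 3.93 in LM24175, and 4.05 and 3.76 against 4.30 and 3.64 in MDA-MB-231, and its difference was 1.58 (adjusted p = 0.011) with all arrays and 1.48 (adjusted p = 0.0029) without the pair. COL15A1, a basement membrane collagen, read 5.88 and 6.01 against 4.59 and 4.65 in LM24175, and 4.22 and 4.35 against 3.94 and 4.15 in MDA-MB-231, with a difference of 1.08 (adjusted p = 0.0047). COL6A3 read 10.13 and 10.59 against 9.05 and 8.95 in LM24175, and 7.05 and 7.04 against 6.45 and 7.08 in MDA-MB-231, with 1.08 (adjusted p = 0.043) with all arrays and 1.63 (adjusted p = 0.00063) without the pair. In all 3 genes both RECK-labelled LM24175 arrays were the highest within that line, and the groups overlapped in MDA-MB-231 for COL3A1 and COL6A3. The MDA-MB-231 values of COL3A1 and COL15A1 and the LM24175 EV values of COL3A1 lay under the lower quartile of their arrays. Another COL3A1 probe set was called with 0.61 (adjusted p = 0.043), and the other 2 gave 0.19 (adjusted p = 0.79) and -0.15 (adjusted p = 0.78). The call of COL3A1 was lost without the first LM24175 EV array, and that of COL6A3 without any of 5 single arrays, the first RECK-labelled LM24175 array and the MDA-MB-231 EV arrays not among them.

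Some enzymes that modify or cross-link collagen ran the other way. The median difference over the 14 measured genes of collagen processing was -0.13 with all arrays and -0.08 without the pair. Over all genes it was -0.01 and -0.03, so most of this list stood near the background. Of 14 measured genes of collagen processing, LOX, LOXL1 and PLOD2 were called lower in both fits, against 1.58% and 1.25% of all genes. LOX, a lysyl oxidase, read 9.39 and 9.92 on the RECK-labelled arrays of LM24175 against 10.91 and 10.99 with empty vector, and 9.83 and 9.83 on the RECK-labelled arrays of MDA-MB-231 against 9.27 and 9.45 with empty vector. The RECK-labelled LM24175 arrays were about as high as the RECK-labelled MDA-MB-231 arrays, and the LM24175 EV arrays stood above all others. LOX fell in LM24175 by 1.29 on the log2 scale, and its difference was -1.76 ± 0.19 (SE; adjusted p = 0.0019) with all arrays and -1.41 (adjusted p = 0.0016) without the pair. Its other 2 probe sets gave -1.69 and -0.82.

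LOXL1, a relative of LOX, read 4.21 and 4.68 against 6.68 and 6.57 in LM24175, and 6.82 and 6.64 against 5.81 and 7.26 in MDA-MB-231, with a difference of -2.37 (adjusted p = 0.02) with all arrays and -1.41 (adjusted p = 0.0022) without the pair. The call was lost without either LM24175 EV array, the first RECK-labelled LM24175 array or the first RECK-labelled MDA-MB-231 array, with an adjusted p of up to 0.088. Its response in MDA-MB-231 was 0.20 with all arrays and -0.53 without the pair, so the signs were opposite in the first fit only. PLOD2, which hydroxylates collagen lysines, read 10.90 and 11.16 against 11.74 and 11.81 in LM24175, and 11.40 and 11.44 against 10.85 and 11.27 in MDA-MB-231 and had a difference of -1.11 (adjusted p = 0.012). Its second probe set gave -0.66 (adjusted p = 0.15). FN1, the fibronectin gene on the list of cell identity, had a difference of -1.44 (adjusted p = 0.046) with all arrays and of -0.77 (adjusted p = 0.17) without the pair on its brightest probe set. Of its 6 probe sets, all with a negative difference, 4 were called with all arrays. Of those 4, 2 were also called without the pair, with -0.73 (adjusted p = 0.016) and -0.61 (adjusted p = 0.021).

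Among 22 measured MMP and TIMP genes, MMP1 was called higher with all arrays, and MMP1, MMP3, MMP14 and TIMP1 were called higher without the pair, against 1.38% and 1.29% of all genes called higher. MMP1, the interstitial collagenase, read 13.31 and 13.75 on the RECK-labelled arrays of LM24175 against 11.75 and 11.77 with empty vector, and 13.75 and 13.80 on the RECK-labelled arrays of MDA-MB-231 against 13.13 and 13.54 with empty vector. The LM24175 EV arrays were the low ones, and the other 6 arrays lay between 13.13 and 13.80. MMP1 rose in LM24175 by 1.77, its response in MDA-MB-231 was 0.44 (adjusted p = 0.27), and the difference was 1.33 ± 0.20 (SE; adjusted p = 0.0071) with all arrays and 1.76 (adjusted p = 0.00063) without the pair.

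MMP3, the stromelysin, read 8.35 and 8.42 against 6.70 and 6.86 in LM24175, and 8.81 and 8.87 against 6.74 and 7.98 in MDA-MB-231, with a difference of 0.12 (adjusted p = 0.92) with all arrays and 0.79 (adjusted p = 0.025) without the pair. Its difference was -0.50 (adjusted p = 0.046) without the second MDA-MB-231 EV array, so its direction rested on which EV array was kept. TIMP1, an inhibitor of MMPs, read 12.71 and 13.33 against 12.39 and 12.42 in LM24175, and 13.06 and 13.02 against 12.31 and 13.30 in MDA-MB-231, with 0.39 (adjusted p = 0.65) with all arrays and 1.19 (adjusted p = 0.0016) without the pair. MMP9, a gelatinase that RECK is known to inhibit, read 7.55 and 7.57 against 6.38 and 6.55 in LM24175, and 7.20 and 7.15 against 6.92 and 6.88 in MDA-MB-231 and was not called (0.82 (adjusted p = 0.22), 95% interval 0.11 to 1.52).

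The aldo-keto reductases AKR1C1, AKR1C2 and AKR1C3, which reduce steroids and carbonyls, were called higher in both fits. Their sequences are close to each other, and the called AKR1C1 and AKR1C2 probe sets are of the kind that may cross-hybridise. The 3 can therefore not be told apart with certainty. A further AKR1C1 probe set gave 0.50 (adjusted p = 0.17) with all arrays and was not called. Of the 20 measured genes of their list, 3 were called higher and 0 lower with all arrays, against 1.38% and 1.58% of all genes. The list median was 0.02 with all arrays and -0.15 without the pair. AKR1C3 read 12.70 and 11.90 on the RECK-labelled arrays of LM24175 against 11.12 and 11.11 with empty vector, and 11.27 and 11.26 on the RECK-labelled arrays of MDA-MB-231 against 11.71 and 11.70 with empty vector. The first RECK-labelled LM24175 array was the highest, and in MDA-MB-231 both EV arrays lay above both RECK-labelled ones. Its difference was 1.63 ± 0.25 (SE; adjusted p = 0.0083) with all arrays and 1.22 (adjusted p = 0.0018) without the pair. AKR1B10, of the same family, read 6.62 and 5.33 against 5.99 and 5.82 in LM24175, and 5.73 and 5.68 against 6.09 and 5.30 in MDA-MB-231, with a difference of 0.06 (adjusted p = 0.97) with all arrays and -0.98 (adjusted p = 0.02) without the pair.

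Outside these lists, the lowest called difference among probe sets with opposite signs and no overlap was that of SLCO4C1, an organic anion transporter. It read 4.23 and 5.78 on the RECK-labelled arrays of LM24175 against 6.78 and 6.76 with empty vector, and 6.73 and 6.69 on the RECK-labelled arrays of MDA-MB-231 against 4.73 and 5.57 with empty vector. The 2 deviating arrays held the 2 lowest values, and the second array of each group lay on the same side. The difference was -3.32 ± 0.53 (SE; adjusted p = 0.0084) with all arrays and -2.12 (adjusted p = 0.0016) without the pair. SHANK2, a scaffold protein of synapses, read 4.78 and 5.37 on the RECK-labelled arrays of LM24175 against 7.15 and 7.16 with empty vector, and 6.94 and 6.99 on the RECK-labelled arrays of MDA-MB-231 against 5.98 and 6.49 with empty vector, with a difference of -2.81 ± 0.32 (SE; adjusted p = 0.0023) with all arrays and -2.26 (adjusted p = 0.0095) without the pair. It fell in LM24175 by 2.08 on the log2 scale, and the MDA-MB-231 response of 0.73 did not pass the test. The other 3 SHANK2 probe sets gave -1.29 (adjusted p = 0.022), -0.01 (adjusted p = 0.99) and 0.06 (adjusted p = 0.94). The second SLCO4C1 probe set gave -0.09 (adjusted p = 0.87) and was not called.

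The other genes at this end were LIPG, ST6GAL1, C1S, DHRS12 and NNMT, with SCD, CXCL3 and LOX described above. A second DHRS12 probe set gave -0.27 (adjusted p = 0.58). Further ST6GAL1 probe sets gave 0.23 (adjusted p = 0.67) and -0.11 (adjusted p = 0.87). LIPG, the endothelial lipase, read 5.31 and 6.50 against 7.31 and 7.25 in LM24175, and 6.59 and 6.75 against 5.24 and 5.87 in MDA-MB-231, with a difference of -2.50 (adjusted p = 0.012). NNMT, which methylates nicotinamide, read 8.67 and 9.54 against 9.65 and 9.61 in LM24175, and 8.80 and 8.88 against 7.36 and 7.90 in MDA-MB-231, with a difference of -1.73 (adjusted p = 0.015). C1S, a protease of the complement system, had a difference of -1.80 (adjusted p = 0.01), and DHRS12, a dehydrogenase, one of -1.77 (adjusted p = 0.011). ST6GAL1, a sialyltransferase, had one of -1.92 (adjusted p = 0.03) with all arrays and -1.26 (adjusted p = 0.18) without the pair. LIPG, NNMT, C1S and DHRS12 were still called without the pair, with smaller differences of -1.59, -1.02, -1.17 and -1.22, and each lost the call without at least 1 LM24175 EV array.

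CHRNA1, a subunit of the muscle acetylcholine receptor, was among the lowest called without the pair, and its values did not follow the pair. It read 3.98 and 4.02 against 4.92 and 5.02 in LM24175, and 4.58 and 4.72 against 4.13 and 3.81 in MDA-MB-231, with a difference of -1.65 ± 0.22 (SE; adjusted p = 0.0037) with all arrays and -1.78 (adjusted p = 0.012) without the pair. Its second probe set gave 0.28 (adjusted p = 0.57). The CHRNA1 values of the RECK-labelled LM24175 and the MDA-MB-231 EV arrays lay under the lower quartile of those arrays. FST, which binds activin, fell in LM24175 by 0.88 on the log2 scale, and its difference was -0.97 (adjusted p = 0.0082) with all arrays and -0.92 (adjusted p = 0.012) without the pair.

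At the other end, CST6, cystatin E/M, an inhibitor of cysteine proteases, read 7.54 and 7.83 on the RECK-labelled arrays of LM24175 against 6.22 and 6.17 with empty vector, and 5.15 and 4.66 on the RECK-labelled arrays of MDA-MB-231 against 5.69 and 5.60 with empty vector. It rose in LM24175 by 1.49 (adjusted p = 0.00047), and in MDA-MB-231 both RECK-labelled arrays lay below both EV arrays, a response of -0.74 (adjusted p = 0.091). The difference was 2.23 ± 0.22 (SE; adjusted p = 0.0011) with all arrays and 2.33 (adjusted p = 0.0049) without the pair, and no single array left out ended the call.

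DCBLD2, a membrane protein of the neuropilin type, read 8.70 and 9.53 against 8.28 and 8.44 in LM24175, and 7.86 and 8.67 against 9.58 and 9.33 in MDA-MB-231, and SORL1, a sorting receptor of endosomes, read 6.70 and 6.33 against 5.90 and 5.93 in LM24175, and 6.53 and 6.51 against 7.31 and 8.34 in MDA-MB-231. Their differences were 1.94 (adjusted p = 0.017) and 1.91 (adjusted p = 0.025) with all arrays, and 2.23 (adjusted p = 0.017) and 2.25 (adjusted p = 0.0066) without the pair. In both, no arrays overlapped between groups in either line, and each lost the call when any 1 of 4 arrays was left out. CCDC69 gave 1.68 (adjusted p = 0.011) and 1.82 (adjusted p = 0.047) in the 2 fits.

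TBL1X, a subunit of a corepressor complex, and PRRC2C had 1 array apart in another group. TBL1X read 7.02 and 7.05 against 5.98 and 6.01 in LM24175, and 5.92 and 7.13 against 7.46 and 7.31 in MDA-MB-231, and PRRC2C read 8.53 and 8.50 against 8.19 and 8.14 in LM24175, and 6.82 and 8.11 against 9.02 and 8.95 in MDA-MB-231. In both, the first RECK-labelled MDA-MB-231 array lay over 1 log2 unit below the second, and no other probe set of either gene was called with all arrays. Their differences were 1.90 and 1.88 with all arrays, and 1.84 (adjusted p = 0.13) and 1.82 (adjusted p = 0.17) without the pair. MAP7D3, CYP24A1, which inactivates vitamin D, and NDP, a ligand of frizzled receptors, had differences of 1.70, 1.74 and 1.69 with all arrays and were not called without the pair either.

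**Figure D5:**
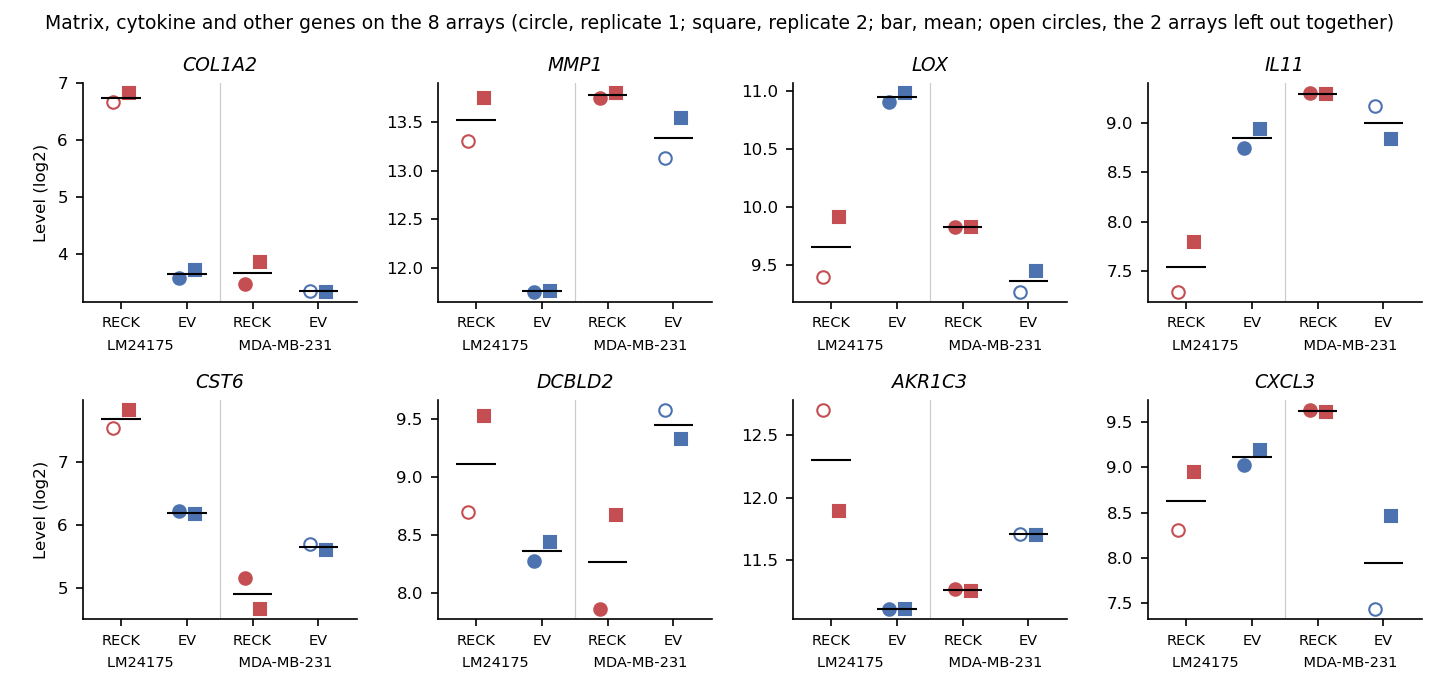
Log2 level of 8 further genes on each of the 8 arrays, with LM24175 left of MDA-MB-231 and RECK-labelled arrays (red) left of EV (blue); bars are group means, circles replicate 1, squares replicate 2, and open circles the 2 deviating arrays. COL1A2 is high on the 2 RECK-labelled LM24175 arrays alone, MMP1 is low on the 2 LM24175 EV arrays alone, and CXCL3 is lowest on the 2 deviating arrays.

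Some genes were called only without the pair. ID3, an inhibitor of helix-loop-helix factors, read 9.27 and 8.25 against 9.98 and 10.18 in LM24175, and 7.21 and 7.36 against 8.60 and 7.21 in MDA-MB-231, with a difference of -0.71 (adjusted p = 0.55) with all arrays and -1.91 (adjusted p = 0.0016) without the pair. LUM, a matrix proteoglycan on the fibroblast list, read 5.70 and 6.87 against 5.24 and 5.11 in LM24175, and 4.24 and 4.45 against 3.46 and 4.80 in MDA-MB-231, with 0.89 (adjusted p = 0.46) with all arrays and 2.14 (adjusted p = 0.0037) without the pair. RUNX3, PCDH7 and CST1 had differences of 2.08 (adjusted p = 0.0029), -1.73 (adjusted p = 0.013) and 2.07 (adjusted p = 0.048) without the pair and were not called with all arrays. Each of these 5 genes had arrays over 0.4 log2 units apart within the RECK-labelled LM24175 group and within the MDA-MB-231 EV group, except RUNX3 in the EV group.

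Among called probe sets whose responses had the same sign, the lowest differences were those of C4BPB (-1.50), S100P (-1.50), HLA-DPA1 (-1.47) and KCNJ8 (-1.25). HLA-DPA1, a chain of MHC class II, read 8.67 and 8.65 against 10.25 and 10.34 in LM24175, and 11.39 and 11.52 against 11.23 and 12.02 in MDA-MB-231, and it fell in LM24175 by 1.64 on the log2 scale. S100P, a calcium-binding protein, read 5.67 and 6.11 against 5.72 and 6.01 in LM24175, and 6.85 and 6.80 against 5.21 and 5.41 in MDA-MB-231, and it rose in MDA-MB-231 by 1.51. Without the pair, C4BPB, S100P and HLA-DPA1 were not called. The highest of this kind were COL1A2, described above, a second AKR1C2 probe set (1.55), TCN1, a vitamin B12 carrier (1.52), and RTN1, a reticulon (1.48), all of them called without the pair too.

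The genes that the title of the series names, and the angiogenic factors, were not called. STAT3 read 10.07 and 10.10 against 10.13 and 10.27 in LM24175, and 9.91 and 10.09 against 9.92 and 10.12 in MDA-MB-231, with a difference of -0.09 (adjusted p = 0.81) and a 95% interval of -0.39 to 0.20. IL6 read 10.15 and 10.95 against 10.62 and 10.72 in LM24175, and 7.49 and 7.68 against 6.39 and 7.53 in MDA-MB-231, with -0.74 (adjusted p = 0.41) and an interval of -1.65 to 0.17. VEGFA read 11.25 and 12.30 against 12.11 and 12.24 in LM24175, and 12.45 and 12.46 against 11.78 and 12.55 in MDA-MB-231, with -0.69 (adjusted p = 0.43) and an interval of -1.56 to 0.18. Without the pair all 3 differences turned sign, to 0.02 (adjusted p = 0.97) for STAT3, 0.22 (adjusted p = 0.54) for IL6 and 0.22 (adjusted p = 0.61) for VEGFA, so none has a settled direction. For IL6 and VEGFA the intervals are wide enough to hold both no difference and one of over 2-fold. Of 26 measured angiogenic factors, 0 were called with all arrays and FGF5 was called lower without the pair (-0.75 (adjusted p = 0.032)).

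The cell identity of the 8 arrays was checked by markers. VIM, CD44, FN1, ZEB1, AXL and CAV1, markers of mesenchymal breast cancer lines, lay above the array median on all 8 arrays, while CDH2 of the same kind lay above it on 0. CDH1 and PGR lay under the lower quartile on all 8. FOXA1, also listed as low, did so on 5 and ESR1 on 0, and both lay above the median on 0. EPCAM, ERBB2 and GATA3, listed as low in MDA-MB-231, lay above the array median on all 8 as well. None of 12 leukocyte markers lay above the median on any of the 8 arrays. Of 8 endothelial markers, PECAM1 and ENG lay above it on 4 arrays each and KDR on 1.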

How the data were processed

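RNA was measured on 16 Affymetrix U133 2.0 arrays in 8 groups of 2. The authors deposited log2 values per probe set, and the submitters' processing notes name Partek, without a version. How probes were summarised and arrays scaled was not given in the sources used here. Precision is limited by the number of arrays. After 62 control probe sets were left out, 22215 probe sets were fitted with limma 3.58.1 (lmFit, contrasts.fit, eBayes; R 4.3.3), with a mean for each of the 8 groups. The median residual SD was 0.134, on 8 residual degrees of freedom with 3.98 from the prior. Tests were 2-sided, with Benjamini-Hochberg adjustment over all probe sets and a threshold of 0.05, and intervals are 95% intervals. The platform annotation gave 19064 probe sets 1 gene symbol, 1043 several and 2108 none, for 11963 genes. In gene lists each gene was read from its probe set with the highest mean. The fit was tested on simulated data with independent noise on each array and the same spread in every group. That test does not cover arrays that deviate together or groups of unequal spread, as found here.

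The members and lists were chosen with earlier results of these data known. Named genes are the 10 highest and 10 lowest differences among called probe sets with opposite signs and no overlap; the 8 highest and lowest with opposite signs called without the pair; the 4 highest and lowest with the same sign; up to 6 members of each described list; RECK; and SREBF1, SREBF2, INSIG1, IL6, STAT3, VEGFA, MMP1, MMP9, COL1A1 and COL1A2. One further gene of that rule is not reported here. ELOVL6, FN1, ID1, IL1B, FGF5, IFI27, ISG15 and the uncalled members of the cholesterol list are named as well, after their values were seen. Alternatives were each array left out, the pair left out, the 8 arrays alone, quantile normalization, centring, a filter on dim probe sets, eBayes with trend and robust, a replicate block, 1 probe set per gene and a 1.5-fold minimum. Same-numbered arrays share only a number.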

Additional observations from a re-analysis of the deposited data

Results flagged for a closer look

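The result of interest is itself a difference between the lines, so each called value is listed here because the test of the difference between the responses passed in limma with all arrays. In all, 581 probe sets passed. Values below are differences, LM24175 minus MDA-MB-231, in log2 units. Groups of 2 arrays were not tested for outlying arrays.

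Among lipid genes, differences were -2.66 and -2.59 for 2 probe sets of SCD, -2.50 for LIPG, -1.68 for FABP4, -1.58 and -1.32 for HMGCS1, -1.46 for MSMO1, -1.39 for FASN, -1.30 for DHCR7 and -1.10 for LPIN1. They were -1.03 for INSIG1, -1.003 for NPC1, -0.94 for ACACA, -0.92 for LSS, -0.90 for FDPS, -0.84 for FADS2, -0.82 for SC5D, -0.68 for IDI1 and -0.64 for ELOVL6. All of these were lower in LM24175.

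Among cytokine, stress and immune genes, differences were -2.16 for CXCL3, -1.80 for C1S, -1.60 for IL11, -1.50 for C4BPB, -1.47 for HLA-DPA1, -1.04 for CSF1 and -1.03 for CXCL1. They were -0.99 for EDEM1, -0.90 for SLC7A5, -0.85 for RELB, -0.65 for MTHFD2 and -0.64 for TNFAIP3. The metallothioneins gave -0.75 for MT1E, -0.57 for MT1F and -0.55 for MT1G.

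Among matrix genes, LOXL1 had -2.37, LOX -1.76, FN1 -1.44 and PLOD2 -1.11, while COL1A2 had 2.78 and 2.34, COL3A1 1.58, MMP1 1.33, COL15A1 1.08 and COL6A3 1.08. The hypoxia genes ALDOC and CA12 had -1.03 and -0.74, and PGK1 had 0.67. FST had -0.97 and BAMBI 0.70.

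Other genes with a lower response in LM24175 were SLCO4C1 (-3.32), SHANK2 (-2.81), ST6GAL1 (-1.92), DHRS12 (-1.77), NNMT (-1.73), CHRNA1 (-1.65), S100P (-1.50), CD24 (-1.25) and KCNJ8 (-1.25). Those with a higher response were CST6 (2.23), DCBLD2 (1.94), SORL1 (1.91), TBL1X (1.90), PRRC2C (1.88), CYP24A1 (1.74), MAP7D3 (1.70), NDP (1.69) and CCDC69 (1.68). The same held for AKR1C2 (1.68 and 1.55), AKR1C3 (1.63), PRPF6 (1.56), TCN1 (1.52), RTN1 (1.48), ADGRF5 (1.44), AKR1C1 (1.44) and ADIRF (1.29). The CD24 and PRPF6 probe sets may cross-hybridise.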

How the results depend on the processing

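Of the 76 called probe sets of named genes, 54 were also called without the pair and 27 with any single array left out, and those 27 were also called without the pair. Single arrays left out took the counts to 143 to 1822 for the difference, 130 to 1657 for opposite signs, 302 to 1433 for LM24175 and 2 to 789 for MDA-MB-231. With the 8 arrays alone, 12 of the 76 called probe sets of named genes were also called. In that fit limma called 25 differences, 20 of opposite sign, 308 in LM24175 and 0 in MDA-MB-231, where 1783 had an unadjusted p under 0.05. When the pair was left out as well, it called 0, 0, 95 and 0, with 2950 unadjusted for the difference and 2199 for MDA-MB-231; these fits have fewer samples for the spread. Trend and robust eBayes gave 953 differences, 837 of opposite sign and 136 in MDA-MB-231, against 53. Leaving out the pair gave 111 in MDA-MB-231, 1 probe set per gene 33, and the 1.5-fold minimum 498 in LM24175, against 980. The replicate block gave 545, 469, 937 and 49, all within 1.5 times; same-numbered arrays correlated by -0.04 (LM24175) and 0.01 (MDA-MB-231) between RECK-labelled and EV deviations, so the numbers were not taken as pairs. Under the block, 5 named calls were lost. Among named genes called in at least 1 of the 2 settings compared, the direction reversed for AKR1B10 (-0.98), ID1 (-0.83) and IFI27 (0.63) without the pair (uncalled in both, COL1A1, IL6, PMVK, STAT3 and VEGFA turned as well) and for MMP3 without the second MDA-MB-231 EV array, its range with single arrays left out being -0.50 to 0.75; the cause was not tested. Detection calls were not used here, so how far dim probe sets limit the result is known only from leaving out the dimmest 25% of probe sets, which gave 702 differences.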

Other observations

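Further lists gave few calls. They stand against 1.38% of all genes called higher and 1.58% called lower with all arrays, and 1.29% and 1.25% without the pair. Metallothioneins, which bind zinc and copper, had 3 of 9 measured genes called lower with all arrays (MT1E, MT1F and MT1G, with differences of -0.75, -0.57 and -0.55) and 1 without the pair. These 3 probe sets may cross-hybridise within the family. Of 23 hypoxia and glycolysis genes, PGK1 was called higher (0.67 (adjusted p = 0.0099)) and ALDOC and CA12 lower (-1.03 (adjusted p = 0.032) and -0.74 (adjusted p = 0.033)) with all arrays. Without the pair these 3 remained called, with 0.58, -0.65 and -0.84, and NDRG1 (1.001 (adjusted p = 0.0072)) and KDM3A (0.59 (adjusted p = 0.048)) were called higher too. PGK1 read 13.25 and 13.19 against 12.71 and 12.77 in LM24175, and 12.48 and 12.53 against 12.77 and 12.63 in MDA-MB-231, RECK-labelled against empty vector.

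Of 15 measured lung metastasis genes, MMP1 and ADIRF were called higher and CXCL1 lower with all arrays. Without the pair 3 were called higher, with LTBP1 added, and 4 lower, with PTGS2, ID1 and ID3 added. ADIRF, an adipogenesis-related factor, read 10.43 and 10.73 against 10.04 and 10.16 in LM24175, and 7.57 and 7.82 against 8.71 and 8.31 in MDA-MB-231, with opposite responses and a difference of 1.29 (adjusted p = 0.0071). Of 19 TGF-beta targets, BAMBI was called higher (0.70 (adjusted p = 0.03)) and FST lower with all arrays. Without the pair, 2 were called higher and 4 lower, among them ID1 (-0.83 (adjusted p = 0.0095)), ID2 (-0.81 (adjusted p = 0.049)) and ID3 (-1.91 (adjusted p = 0.0016)). Of 28 interferon-stimulated genes, 0 were called with all arrays, while IFI27 (0.63 (adjusted p = 0.02)) and ISG15 (0.55 (adjusted p = 0.047)) were called higher without the pair.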
